A study of Danio rerio with 8 samples.

Results

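Acinar cells of the exocrine pancreas make the enzymes that digest starch and protein in the gut, and 10 of the genes for these enzymes were followed here in whole zebrafish embryos at 2 days post-fertilisation (dpf). The genes were the amylase genes *amy2a*, *amy2al1* and *amy2al2*, the trypsin-family genes *prss1*, *prss59.1* and *prss59.2*, the chymotrypsin gene *ctrb1*, the elastase genes *ela2l* and *ela3l*, and the carboxypeptidase gene *cpa5*. They were chosen by symbol, with the low raw counts of these same libraries in view, so that low counts are a property of the choice and not a finding. All 10 were found among the 32057 genes of the count table, and 9 of them were among the 23567 genes tested, which had more than 1 count in at least 4 libraries. The exception was *ela2l*.

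The study compared embryos homozygous for the hu2787 allele of *fmr1*, a nonsense mutation, with wild type embryos. The mutant clutches were S2, S4, S5 and S8 and the wild type clutches were A, D, G and L, so n = 4 for each genotype. Each library was polyA+ RNA pooled from the embryos of 1 clutch, every clutch had its own parents, and all clutches were raised without treatment in E3 medium. The fish of both genotypes descend from 1 imported population in which some individuals carried the w2 allele of *mitfa* in the heterozygous state. By the paper, some of the examined clutches held this allele too, and no parent of a sequenced clutch was homozygous for it. Its later check found no great effect of the allele on the transcriptome results. Which of the clutches used here held it is not in the sample labels. The sample labels call the animals larvae, and the *fmr1* genotype is spelled fmr1h2787/h2787 there.

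In zebrafish, the exocrine pancreas grows mainly from a ventral bud of the gut tube whose cells express the transcription factor gene *ptf1a*. Its acinar cells begin to transcribe enzyme genes before the larva feeds, and store the proteins as inactive precursors in zymogen granules. Trypsin, once activated in the gut, activates the precursors of chymotrypsin, elastase and carboxypeptidase, while amylase is made in active form. Transcripts of these genes are therefore used as markers of differentiated acinar cells.

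Total counts per library lay between 29296538 and 33205738, and TMM factors between 0.891 and 1.12. The targeted gene followed its labels, with *fmr1* (listed as FMR1) at 19.8, 23.4, 22.8 and 19.5 CPM (reads scaled by library size) in mutants S2, S4, S5 and S8 and at 54.2, 50.0, 48.1 and 47.1 CPM in wild type A, D, G and L. In edgeR's quasi-likelihood test, 3 of all genes tested had an adjusted p (false discovery rate, FDR) under 0.05. Mutant clutches S4 and S8 had the highest summed level of the enzyme genes. By CPM, both lay above the other 6 clutches for 5 of the 10 genes. Each genotype difference is also given without these 2 clutches. Because they were picked for these same values, a smaller difference without them was built into the choice, and those values show only how much of each difference lay in these clutches.

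The enzyme genes gave few reads in any clutch. Together they had 5833 counts, of which 3799 were in mutant and 2034 in wild type clutches. The highest count of any of the genes in a clutch was 606, for *prss1* in S4. Of the 80 values (10 genes in 8 clutches), 33 were under 10 counts and 7 were 0. A count of 0 allows up to 3 reads, which is between 0.0903 and 0.102 CPM (without TMM factors) at these depths, and this limit covers counting error only. It takes reads as independent. The libraries were paired-end, and both reads of a pair could be counted, so the limit may be too low. Most of the reads (77.0%) came from *prss1*, *amy2al1* and *cpa5*.

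**Figure D1:**
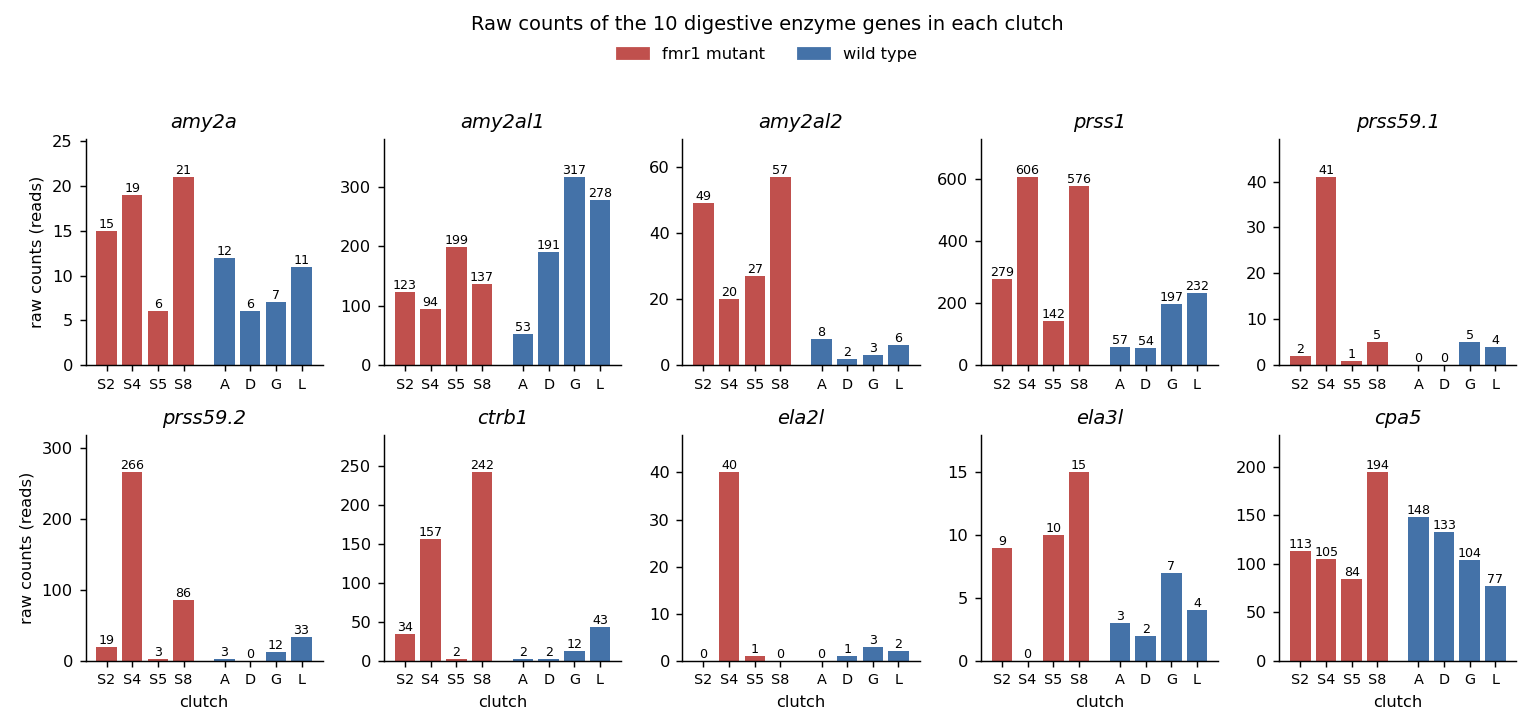
Raw counts (reads, vertical axes from 0 and scaled for each gene) of the 10 digestive enzyme genes in each clutch, with the mutant clutches in red on the left and the wild type clutches in blue on the right. S4 or S8 is the highest mutant clutch for most genes, whereas *amy2al1* has its highest count in wild type G and *cpa5* lies between 77 and 194 in every clutch.

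The summed level of the 10 genes was 18.5 CPM in S2, 40.9 CPM in S4, 17.5 CPM in S5 and 42.9 CPM in S8 of the mutants. In the wild type it was 9.18 CPM in A, 11.3 CPM in D, 20.8 CPM in G and 26.0 CPM in L. The genotypes overlapped, since wild type G and L lay above mutant S2 and S5. The mean was 29.9 ± 13.8 CPM in mutant clutches and 16.8 ± 7.97 CPM in wild type clutches (SD, n = 4 each), a ratio of 1.78 or 0.83 on the log2 scale. Between the highest and the lowest clutch the level differed by a factor of 4.67, within the mutants by 2.45 and within the wild type by 2.84. The range within each genotype was thus wider than the ratio of the means. A range of extremes and a ratio of means are unlike measures, so this is no test of a genotype difference. The SD of the log2 sums within genotype was 0.71. Without S4 and S8 the log2 ratio of the means was 0.10. In RNA from whole embryos, the cells that gave these reads are not known. Fewer acinar cells and less enzyme RNA in each acinar cell cannot be told apart either.

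Among the serine proteases, *prss1* was the most abundant. This trypsin gene (ENSDARG00000042993, GRCz11 chromosome 16, 25080764 to 25085327, reverse strand) had 279, 606, 142 and 576 reads in mutants S2, S4, S5 and S8 and 57, 54, 197 and 232 reads in wild type A, D, G and L. S4 and S8 were the highest and A and D the lowest, and S5 lay below wild type G and L. The mean level was 12.5 ± 6.92 CPM in mutant clutches and 4.57 ± 3.49 CPM in wild type clutches. The fitted log2 fold change was 1.46 (SE 0.575, FDR = 0.528), and 0.55 without S4 and S8.

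The neighbouring trypsin-family genes *prss59.1* (ENSDARG00000079274, chromosome 16, 26012569 to 26013851) and *prss59.2* (ENSDARG00000073742, chromosome 16, 26017360 to 26018694) lie on the same strand. For *prss59.2* the counts were 19, 266, 3 and 86 in S2, S4, S5 and S8 and 3, 0, 12 and 33 in A, D, G and L. Mutant S5 and wild type A and D were therefore at or under 3 counts, while S4 alone held most of the reads. For *prss59.1* the counts were 2, 41, 1 and 5 in the mutants, against 0, 0, 5 and 4 in the wild type. Apart from S4, no clutch had more than 5 reads of this gene. The log2 fold change was 2.79 (SE 1.21, FDR = 0.528) for *prss59.2* and 2.30 (SE 1.21, FDR = 0.559) for *prss59.1*. Without S4 and S8 that of *prss59.2* was −0.28, and *prss59.1* no longer entered the test. Without S4 alone that of *prss59.1* was 0.21. These genes may be near-identical copies, and only uniquely aligned reads were counted, so the split of reads between them is uncertain.

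The chymotrypsin gene *ctrb1* (ENSDARG00000090428, chromosome 7, 35075847 to 35079299) had 34, 157, 2 and 242 reads in mutants S2, S4, S5 and S8. In wild type A, D, G and L it had 2, 2, 12 and 43 counts. Its level was highest in S8, at 7.78 CPM, while mutant S5 and wild type A and D had 2 reads each, under the 3 reads that a count of 0 allows. Its mean was 3.40 ± 3.56 CPM in mutant clutches and 0.530 ± 0.744 CPM in wild type clutches, with SDs larger than the means. The log2 fold change was 2.73 (SE 1.16, FDR = 0.528) and 0.09 without S4 and S8. It lies close to *ctrb.2* and *ctrb.3* on chromosome 7, and how uniquely aligned reads split between such copies is uncertain.

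Over both genotypes together the elastase genes had the fewest reads, with 47 for *ela2l* and 50 for *ela3l*, although in the wild type *prss59.1* (9 reads) lay below *ela3l* (16 reads). For *ela2l* (ENSDARG00000056765, chromosome 8, 21366771 to 21372485) there were 0, 40, 1 and 0 reads in S2, S4, S5 and S8 and 0, 1, 3 and 2 reads in A, D, G and L. All but 7 of its 47 reads were from S4, and S8, which was high for *prss1*, *prss59.2* and *ctrb1*, had none. It failed the filter on low counts and no fold change was fitted. It overlaps *alas2* on the opposite strand, from which the stranded counting separates it. It also lies close to *ela2* (chromosome 8, 21376290 to 21381734). If *ela2l* and *ela2* share near-identical stretches, the split of uniquely aligned reads between them is uncertain. For *ela3l* (ENSDARG00000007276, chromosome 5, 26111596 to 26118855) there were 9, 0, 10 and 15 reads in the mutants, against 3, 2, 7 and 4 in the wild type. Here S4 had no reads, so the order of the mutant clutches was not that of the trypsins. The log2 fold change of *ela3l* was 1.06 (SE 0.805, FDR = 0.672), and 1.25 without S4 and S8.

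The amylase genes differed from each other in their order of clutches. The most abundant, *amy2al1* (ENSDARG00000030357, chromosome 17, 43863708 to 43888569), had 123, 94, 199 and 137 reads in S2, S4, S5 and S8 and 53, 191, 317 and 278 reads in A, D, G and L. It was the only one of the 9 genes with a log2 fold change below 0, at −0.61 (SE 0.483, FDR = 0.689; −0.34 without S4 and S8), and its genotypes overlapped, with A the lowest of all. For *amy2a* (ENSDARG00000013856, chromosome 2, 15612755 to 15626972) the counts were 15, 19, 6 and 21 in the mutants, against 12, 6, 7 and 11 in the wild type, with a log2 fold change of 0.69 (SE 0.457, FDR = 0.621), and 0.18 without S4 and S8.

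For *amy2al2* (ENSDARG00000009443, chromosome 17, 42983983 to 42988356) the counts were 49, 20, 27 and 57 in S2, S4, S5 and S8 and 8, 2, 3 and 6 in A, D, G and L. Every mutant clutch lay above every wild type clutch, and S2 and S8, not S4, were the highest. Its mean was 1.21 ± 0.528 CPM in mutant clutches and 0.159 ± 0.0978 CPM in wild type clutches, and its log2 fold change was 2.93 (SE 0.521). The unadjusted p of the quasi-likelihood test in edgeR was 0.000177, and the FDR over all genes tested was 0.528. In the likelihood-ratio test of edgeR the FDR was 0.000391 and in DESeq2 it was 0.000769, so that its call depended on the test. Over the other alternatives that tested it the FDR was between 0.0761 and 0.9996, while the log2 fold change stayed between 2.65 and 3.28 and was 2.93 without S4 and S8. The amylase genes may share near-identical stretches, and because only uniquely aligned reads were counted, the split of reads between them is uncertain.

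The carboxypeptidase gene *cpa5* (ENSDARG00000021339, chromosome 25, 18459924 to 18470695) was the steadiest of the set. Its counts were 113, 105, 84 and 194 in S2, S4, S5 and S8 and 148, 133, 104 and 77 in A, D, G and L. Mutant S8 was the highest, the other mutant clutches lay within the wild type range of CPM, and L, high for the trypsins within its genotype, was the lowest. The mean was 3.94 ± 1.53 CPM in mutant clutches and 3.68 ± 0.808 CPM in wild type clutches, and the log2 fold change was 0.10 (SE 0.276, FDR = 0.929), and −0.21 without S4 and S8.

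Set against gene length, *prss1* was the highest of the enzyme genes in both genotypes, with mean levels of 14.4 CPM per kb in mutant and 5.25 CPM per kb in wild type clutches. In mutant clutches it was followed by *prss59.2* (3.27 CPM per kb), *cpa5* (2.91 CPM per kb), *ctrb1* (1.77 CPM per kb) and *amy2al1* (1.26 CPM per kb). In wild type clutches it was followed by *cpa5* (2.72 CPM per kb) and *amy2al1* (1.92 CPM per kb), with *prss59.2* at 0.488 CPM per kb and *ctrb1* at 0.276 CPM per kb. The SDs of *prss59.2* and *ctrb1* were larger than their means in both genotypes. Their places in this order rest mostly on S4 and S8 in the mutants and on L in the wild type. The other 5 genes were at or under 0.726 CPM per kb in either genotype.

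The makeup of the enzyme RNA also differed between clutches. The 6 serine protease genes summed to 9.85, 33.7, 5.85 and 29.7 CPM in S2, S4, S5 and S8 and to 2.09, 1.70, 7.37 and 12.003 CPM in A, D, G and L. The lowest and the highest clutch were thus 19.8-fold apart. The 3 amylase genes summed to 5.37, 4.03, 8.54 and 6.91 CPM in the mutant clutches and to 2.34, 5.73, 10.2 and 11.1 CPM in the wild type clutches. This sum did not follow the proteases among the mutants. It rested mostly on *amy2al1*, with 1392 reads in all, against 97 of *amy2a* and 172 of *amy2al2*. For *amy2a*, S4 and S8 were the highest clutches, as for *prss1*, and for *amy2al2*, S2 and S8 were. As a share of the reads of all 10 genes, amylases made up 29.1%, 9.87%, 48.8% and 16.1% in S2, S4, S5 and S8 and 25.5%, 50.9%, 49.0% and 42.8% in A, D, G and L. Amylase reads were therefore the smallest share in S4 and S8.

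**Figure D2:**
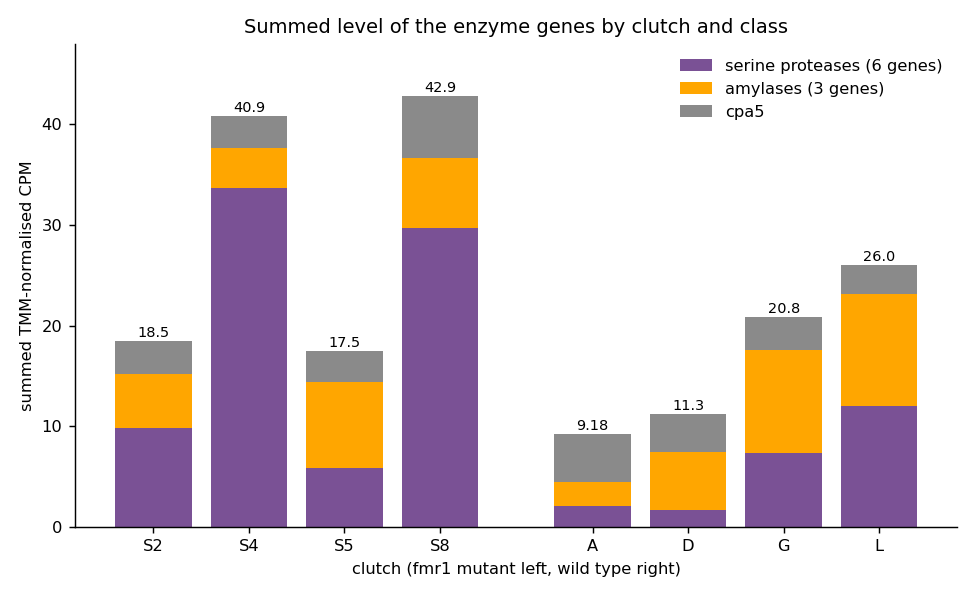
Summed TMM-normalised CPM (vertical axis) of the enzyme genes in each clutch (horizontal axis, mutant clutches left and wild type right), stacked by class. The totals run from 9.18 CPM in A to 42.9 CPM in S8, and the protease part differs most between clutches.

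In the test across all genes, 0 of the 9 enzyme genes passed an FDR of 0.05 in edgeR's quasi-likelihood test, where 0.0127% of all genes tested did so. The count was also 0 in limma-voom (0.00849% of all genes), and 1 in edgeR's likelihood-ratio test (0.132% of all genes) and in DESeq2 (0.157% of all genes), the gene being *amy2al2* in both. At an unadjusted p under 0.05, 4 of the 9 were higher in the mutants (*amy2al2*, *prss1*, *prss59.2* and *ctrb1*), where 4.22% of all genes were, and 0 were lower, where 5.19% were. The number higher was 4 in the likelihood-ratio test, where 4.74% of all genes were, and 2 each in DESeq2 and limma-voom, where 5.05% and 4.24% were, and 0 were lower in these tests. Only *amy2al2* had mutant clutches wholly above the wild type clutches, against 1.78% of all genes, and 0 lay wholly below, against 2.5%. Above 0 were 8 of the 9 fitted log2 fold changes, beside 12504 of the 23567 genes tested. Their median was 1.46, beside 0.02 over all genes tested.

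The number of enzyme genes higher at an unadjusted p under 0.05 varied with the clutches that entered the test. Among the mutants it was 5 without S2, 2 without S4, 4 without S5 and 1 without S8, where 3.56%, 3.37%, 8.11% and 2.81% of all genes tested were higher. Among the wild type clutches it was 1 without A, 1 without D, 2 without G and 4 without L, where 2.47%, 3.01%, 4.06% and 5.6% of all genes were higher. In these 8 fits *amy2al2* was among them each time, and *amy2al1* was the only enzyme gene lower, without A (log2 fold change −0.93). Without S4 and S8, 8 of the genes were tested, and the median log2 fold change was 0.13. At such a p, 1 was higher, where 1.59% of all genes were. Above 0 were 5 of the 8, and the share of all genes above 0 in that fit was not computed. The genes were chosen with earlier results of these data known, so these counts describe them and are no separate evidence of a genotype effect.

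**Figure D3:**
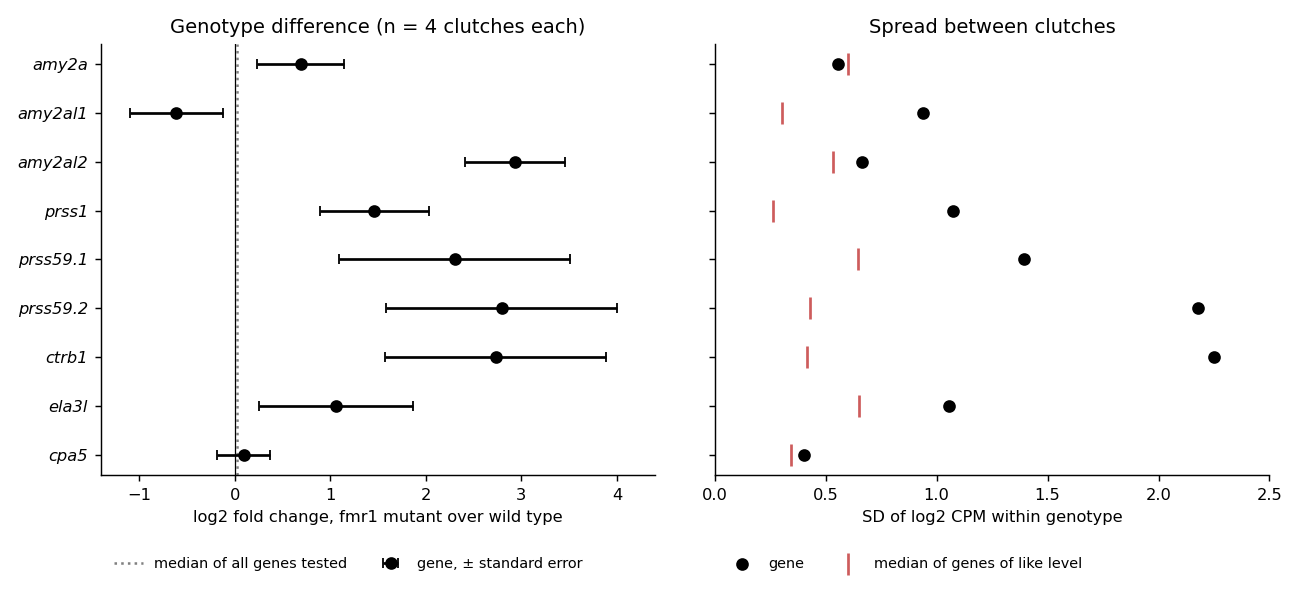
Left, log2 fold change (mutant over wild type) of the 9 enzyme genes tested, with standard errors (n = 4 clutches each) and the median of all genes tested as a dotted line. Right, SD of log2 CPM within genotype for each gene (dots) and the median SD of genes of like level (ticks), which *ctrb1* and *prss59.2* exceed most, at 2.25 and 2.18 on the log2 scale.

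The spread between clutches of 1 genotype was smallest for *cpa5* and large for the trypsins, *ctrb1* and *amy2al1*. The SD of log2 CPM within genotype was 2.25 for *ctrb1*, 2.18 for *prss59.2*, 1.39 for *prss59.1* and 1.07 for *prss1*, against a median of 0.31 over all genes tested. Low counts alone widen this measure, and genes within 0.5 log2 CPM of each of these had a median SD of 0.42 (*ctrb1*), 0.43 (*prss59.2*), 0.64 (*prss59.1*) and 0.26 (*prss1*). Of the genes at its own level, 99.6% had a smaller SD than *ctrb1*, 99.5% than *prss59.2*, 98.9% than *prss59.1* and 99.1% than *prss1*. For *amy2al1* the SD was 0.94, against a median of 0.30 at its level, where 98.0% of genes had a smaller one. For *ela3l* it was 1.06, against a median of 0.65 (92.6% smaller). It was 0.66 for *amy2al2* (68.5% smaller), 0.56 for *amy2a* (43.6% smaller) and 0.40 for *cpa5*, which was above the median of 0.34 at its own level (61.0% smaller).

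The order of the clutches was shared by some of the genes. S4 and S8 were the highest clutches of all 8 for *amy2a*, *prss1*, *prss59.1*, *prss59.2* and *ctrb1*. For *prss59.1*, however, S8 (0.161 CPM) and wild type G (0.156 CPM) had 5 reads each. Of the 10 genes, 9 were highest in S4 or S8, the exception being *amy2al1*, which was highest in L. Within the wild type, G and L were both above A and D in 7 of the 10 genes, the exceptions being *amy2a*, *amy2al2* and *cpa5*. Over the 8 clutches, Pearson's r of log2 CPM among *prss1*, *prss59.1*, *prss59.2* and *ctrb1* was between 0.77 (*prss59.1* with *ctrb1*) and 0.95 (*prss59.2* with *ctrb1*), and between 0.72 and 0.93 after the genotype means were subtracted. The r of *cpa5* with these 4 genes was between −0.22 and 0.19 and that of *amy2al1* between −0.08 and 0.13. It was between 0.57 and 0.85 for *amy2a*, between 0.40 and 0.87 for *ela2l* and between 0.23 and 0.64 for *amy2al2*. For *ela3l* it was between −0.37 and 0.18. These values describe 8 shared libraries, in which S4 and S8 weigh heavily. The share of all genes with these orders of clutches was not computed. S4 and S8 were also picked for their summed level of the enzyme genes, so the counts of genes highest there are partly built in.

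The summed level of other genes of the exocrine pancreas was also highest in S4 and S8. These 23 genes include 6 at or under 3 counts in every clutch, whose r has little meaning. Over the 8 clutches, 5 of the 23 had an r of log2 CPM above 0.8 with the summed enzyme genes, and the median r was 0.54. The share of all genes with such an r was not computed. Of 30 further enzyme and zymogen genes listed, 23 were matched to the count table and 15 were tested, and 0 passed an FDR of 0.05 in edgeR's quasi-likelihood test. At an unadjusted p under 0.05, 5 were higher in the mutants and 0 lower, and these counts and those of the lists that follow stand beside 4.22% of all genes higher and 5.19% lower. The log2 fold change was above 0 for 12 and below 0 for 3 (*cpa1*, *ela2* and *prss60.1*), with a median of 1.14. Over all genes tested it was above 0 for 12504 and below 0 for 11063. The carboxypeptidase B gene *cpb1* had 69, 188, 36 and 158 reads in S2, S4, S5 and S8 and 17, 27, 48 and 76 in A, D, G and L. The gene *pdia2*, for a disulfide isomerase of acinar cells, had 128, 333, 82 and 198 reads in the mutants, against 39, 45, 88 and 143 in the wild type. Both thus had S4 and S8 highest, and A and D lowest. The chymotrypsin-like gene *ctrl* had 3, 36, 3 and 30 reads in the mutants, against 1, 0, 1 and 2 in the wild type. For *ctrb.3* there were 2, 23, 0 and 15 reads in the mutants, against 1, 0, 0 and 3 in the wild type. The protease gene *prss60.2* differed less, with 79, 64, 78 and 142 reads in the mutants, against 65, 46, 52 and 67 in the wild type. The elastase gene *ela2*, named after its values were seen, had 5, 8, 25 and 17 reads in the mutants, against 15, 21, 21 and 9 in the wild type, so that S5 was the highest and S2 and S4 were the lowest. Summed over the 23 genes, the level was 12.1, 28.7, 11.4 and 25.9 CPM in S2, S4, S5 and S8 and 7.32, 6.25, 9.84 and 14.8 CPM in A, D, G and L. At or under 3 counts in every clutch were 6 of them, *cpa1*, *ctrb.2*, *cela1.1*, *cela1.3*, *cela1.5* and *sycn.1*.

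The transcription factor genes of the pancreas did not share this order. Of 20 tested, 0 were higher and 1 (*sox9b*) was lower in the mutants at an unadjusted p under 0.05, which is close to the share of all genes, and the median log2 fold change was −0.01. Their summed level was between 418 and 560 CPM in mutant and between 496 and 528 CPM in wild type clutches, but most of these genes are also expressed outside the pancreas. In *ptf1a*, which specifies acinar cells and is also a gene of the hindbrain and retina, the counts were 93, 61, 151 and 55 in S2, S4, S5 and S8 and 125, 175, 106 and 91 in A, D, G and L. Its lowest clutches were thus S4 and S8, the highest for the trypsins. The counts of *pdx1*, a factor of the pancreas and duodenum, were 69, 70, 85 and 113 in the mutants, against 67, 64, 98 and 71 in the wild type, and those of the insulin gene *ins* were 503, 246, 399 and 713 in the mutants, against 506, 437, 428 and 408 in the wild type. These 3 genes were named after their values were seen. Among 17 genes of the islets tested, 0 were higher and 2 lower at an unadjusted p under 0.05, with a median log2 fold change of 0.10. The 2 lower were *insm1a* and *insm1b* (the latter named after its values were seen), while *ins* had a log2 fold change of 0.05. In whole embryos, the cells that gave the reads of this list are not known.

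Summed levels of genes of other tissues also differed between clutches, some with clutches high and low as for the enzyme genes and some the other way. The median r with the summed enzyme genes was 0.87 for cartilage, 0.79 for gut epithelium and 0.79 for photoreceptor genes. An r above 0.8 was found for 10, 7 and 7 of their 16 genes. The share of all genes with an r above 0.8, and their median r, were not computed. These values and those below thus describe the lists only. Among 18467 genes tested with an average log2 CPM above 0, 323 had an r above 0.9. For the further exocrine genes the median was 0.54, with 6 of the 23 at or under 3 counts in every clutch. It was 0.135 for liver secreted proteins, 0.12 for the islets, 0.03 for pancreas transcription factors and −0.52 for the hatching gland. The 16 photoreceptor genes matched, which the retina turns on late in embryonic life, summed to 327, 742, 178 and 233 CPM in S2, S4, S5 and S8 and to 114, 122, 294 and 334 CPM in A, D, G and L. Of 15 tested, 14 had a log2 fold change above 0, beside 12504 of the 23567 genes tested. An unadjusted p under 0.05 was found for 0 of them, and their median was 1.28. Only *opn1lw1* was at or under 3 counts in every clutch. The blue cone opsin gene *opn1sw2* had 141, 1337, 33 and 148 reads in the mutants, against 16, 13, 185 and 158 in the wild type, so that S4 was highest, A and D were low as for the trypsins, and S8 was not high.

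The hatching gland is a group of cells on the yolk that releases proteases to digest the chorion and is then lost. The summed level of its genes ran the other way. The 6 genes matched summed to 251, 216, 505 and 242 CPM in S2, S4, S5 and S8 and to 960, 567, 387 and 471 CPM in A, D, G and L. Of the 6, only *he1.1* and *he1.2* had an r under −0.8 with the summed enzyme genes (−0.86 and −0.90). It was −0.76 for *ctslb* (named after its values were seen), −0.29 for *he1.3*, 0.21 for *ctsl.1* and 0.43 for *cd63*. The hatching enzyme gene *he1.1* had 3219, 2624, 6731 and 1478 reads in the mutants, against 19025, 10623, 5726 and 6312 in the wild type. S5, with the lowest sum of the enzyme genes among the mutants, was thus the highest mutant clutch for *he1.1*, and A and D were the highest of all. Of the 6 genes tested, 2 (*he1.1* and *he1.2*) were lower and 1 (*ctsl.1*) higher at an unadjusted p under 0.05, with a median log2 fold change of −1.50.

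The cartilage genes summed to between 6304 and 8228 CPM in mutant and between 5017 and 7277 CPM in wild type clutches, with S4 highest and D lowest. Of 16 tested, 3 were higher and 0 lower at an unadjusted p under 0.05 (median log2 fold change 0.26). The cartilage matrix gene *matn1* had 3440, 7956, 1075 and 3756 reads in the mutants, against 378, 178, 2358 and 3608 in the wild type. Gut epithelium genes summed to between 717 and 1556 CPM in mutant and between 1033 and 1370 CPM in wild type clutches, with a median log2 fold change of 0.81 over 15 tested, 4 of them higher and 0 lower at an unadjusted p under 0.05. Of these, the brush border gene *vil1* had 389, 638, 135 and 911 reads in the mutants, against 104, 98, 301 and 246 in the wild type, which is nearly the order of *prss1*. The most abundant genes of the list did not share it, the r with the summed enzyme genes being −0.04 for *apoa4b.1*, −0.17 for *apoa4b.2* and −0.13 for *fabp2*. These genes weigh most in the list sum, which was highest in S8 and S5 and lowest in S4 and S2. Gene by gene, however, 7 of the 16 matched had an r above 0.8, and the median r was 0.79. Genes of liver secreted proteins summed to between 9636 and 14675 CPM in mutant and between 10787 and 12548 CPM in wild type clutches (median log2 fold change 0.15 over 18 tested, 3 higher and 0 lower at an unadjusted p under 0.05). The most abundant genes weigh most in this sum, and the r with the summed enzyme genes was −0.15 for *apoa2* and −0.05 for *apobb.1*. An r above 0.8 was found for 2 of the 18, *fabp10a* (0.92, named after its values were seen) and *ttr* (0.86). In RNA from whole embryos, the cells that gave the reads of the gut and liver lists are not known either. No gene of these lists passed an FDR of 0.05 under any test or alternative run. The part that differences in stage between clutches, or in the cells they hold, have in the enzyme values was not tested, and with 1 library per clutch, clutch and stage cannot be told apart.

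**Figure D4:**
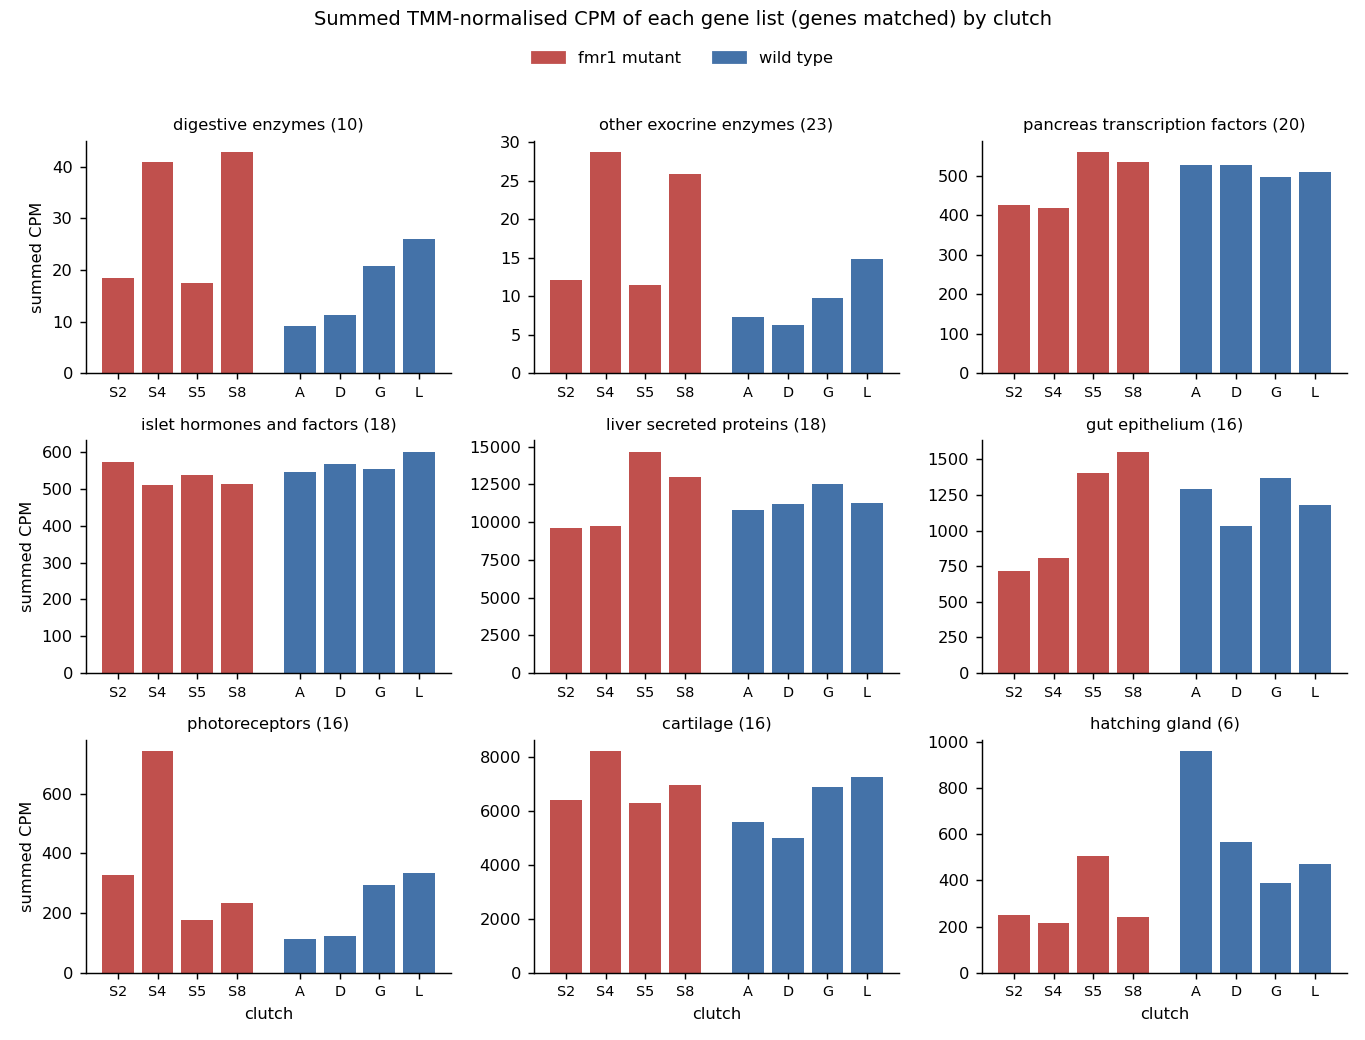
Summed TMM-normalised CPM (vertical axes from 0, scaled for each list) of the matched genes of 9 lists in each clutch, with mutant clutches in red on the left and wild type clutches in blue on the right. S4 and S8 are highest for both lists of pancreatic enzymes, A and D are the highest wild type clutches for the hatching gland, and the transcription factor list lies between 418 and 560 CPM in every clutch.

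The genes whose pattern over the 8 clutches was most like that of the summed enzyme genes were ranked by Pearson's r of log2 CPM among 18467 genes tested with an average log2 CPM above 0. The first was *zgc:77748* (r = 0.99), with 123, 309, 62 and 309 reads in S2, S4, S5 and S8 and 37, 43, 133 and 125 in A, D, G and L. It was followed by *anxa2b*, an annexin gene, *cpb1*, RAB6B, TSPAN3, AGXT, ENSDARG00000062758, GAD1, *rbp3* and BIN2, with r between 0.978 and 0.986 (symbols as the name table gives them). Of these, only *cpb1* was on a list of pancreatic genes. For *rbp3*, which codes for a retinoid-binding protein of the photoreceptor layer, the counts were 465, 1020, 218 and 971 in the mutants, against 93, 122, 328 and 336 in the wild type. After the genotype means were subtracted the first 10 were MBNL3, *uox*, *zgc:77748*, *anxa2b*, *cpb1*, RAB6B, *rbp3*, LRRC4C, TSPAN3 and *si:dkey-19b23.7*, with r between 0.977 and 0.985. An r above 0.9 was found for 323 of the 18467 genes before and 261 after this step, so an r above 0.9 was not confined to the genes named.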

How the data were processed

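RNA-seq was performed on 8 clutches (4 of each genotype). The authors aligned the reads to GRCz11 with STAR (2.5.3a) and deposited raw counts per gene from featureCounts (1.5.2). Per the file headers, reads needed a mapping quality of at least 10 and had to fall entirely in exons of the same strand. No option for read pairs was named, so that values are counts of reads. No per-sample column was left unused (0).

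Symbols came from a name table (28988 of 32057 genes). *ctrb1* was matched through the gene names of the study, since the name table has ctrb.1, and *cpa5*, which the name table lists as CPA1, through neighbouring genes in the RefSeq annotation of GRCz12tu. Lists of other tissues were matched likewise. The genes that exceeded 1 count in 4 or more libraries were compared between genotypes with edgeR (4.0.16, R 4.3.3) by the quasi-likelihood test after TMM normalisation, with Benjamini-Hochberg adjustment over all 23567 genes tested. This test replaced the likelihood-ratio test named in the methods, which was an alternative, and Conditional Quantile Normalisation was not used here. The paper worded its filter in counts and kept 18280 genes, the number left here by more than 1 CPM in at least 4 libraries. CPM values were TMM-normalised and log2 CPM used a prior count of 2. Other alternatives were DESeq2 (1.42.0), limma-voom (limma 3.58.1), RLE factors, other filters, other designs, and leaving out each clutch. The fit without S4 and S8 was added after seeing the data. The fit was tested on simulated data.

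The enzyme genes and the lists were chosen with earlier results of these data known. All 10 enzyme genes are named, and of each other list the 3 genes with the highest mean CPM, the 2 with the largest log2 fold change and any with FDR under 0.05 could be named. The 10 genes most like the summed enzyme CPM are named with and without subtraction of genotype means. Sequences were not used here. 1 gene of the lists is not reported here by name.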

Additional observations from a re-analysis of the deposited data

Results flagged for a closer look

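In each genotype, the highest or lowest of the 4 clutches was set against the other 3 for every enzyme gene, their sums and the genes named from the other lists. Of 100 such groups, 12 had a clutch far from the others for the spread of its group. Chance flags about 1 in 20 groups where values are normally distributed, which CPM of low counts are not. Genes of 1 list also share clutches, so the groups are not independent. The number flagged is therefore no measure of an excess over chance.

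Among the enzyme genes, mutant S4 stood apart in *prss59.1*, at 1.24 CPM against 0.0368 to 0.161 CPM in the other mutant clutches, and in *ela2l*, at 1.21 CPM against 0 to 0.0368 CPM. Mutant S8 stood apart in *cpa5*, at 6.24 CPM against 3.09 to 3.24 CPM. No wild type clutch stood apart in an enzyme gene by this measure.

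Mutant S4 was also far from the other mutant clutches in *opn1sw2* (40.5 CPM against 1.21 to 4.76 CPM), *opn1lw2* (185 CPM against 8.32 to 35.0 CPM), *opn1mw1* (49.1 CPM against 0.883 to 4.57 CPM) and *col11a1a* (1370.1 CPM against 1126 to 1165 CPM). Mutant S8 was far from the others in *tfa* (740 CPM against 1314 to 1398 CPM), and S5 in *acanb* (5.48 CPM against 15.3 to 16.5 CPM). In the wild type, A was far from the others in *he1.3* (0.546 CPM against 0.113 to 0.125 CPM), G in *c3a.2* (0.156 CPM against 0.453 to 0.514 CPM) and L in *cd63* (143 CPM against 114 to 119 CPM).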

How the results depend on the processing

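The number of enzyme genes past an FDR of 0.05 was 0 by default and in 16 of 18 alternatives, including each fit that left out 1 clutch (0 to 0). It was 1 in the likelihood-ratio test and 1 in DESeq2, in both cases *amy2al2*. The filter of more than 1 CPM in at least 4 libraries tested 4 of the enzyme genes and not *amy2al2*, so its 0 does not bear on that gene. The log2 ratio of the summed enzyme CPM (0.83) lay between 0.63 and 1.12 with 1 clutch left out and was 0.10 without S4 and S8, and the log2 span over clutches (2.22) lay between 1.93 and 2.22 with 1 clutch left out and was 1.51 without S4 and S8. The log2 fold change of *cpa5* (0.10) was −0.20 without S8 and −0.0010 without L, lay between −0.20 and 0.24 with 1 clutch left out, and was −0.21 without S4 and S8, and that of *prss59.2* (2.79) was −0.28 without S4 and S8. The causes were not tested. The 7 other enzyme genes tested kept their direction in every alternative that tested them. The replicate block gave 0 enzyme genes past the threshold and 0 of all genes, against 3 without the block. The same-numbered clutches had correlations of 0.33, −0.20, 0.02 and 0.25 in their deviations from the genotype means, and 1 of 4 mutant clutches correlated best with its own number, so the pairing rests on a number only. Counts under 10 in 33 of 80 values limit the precision of all but *prss1*, *amy2al1* and *cpa5*, and where the labels give no culture or extraction date, a batch could not be examined.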
